A study of Mus musculus with 8 samples.

Results

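Collagen genes were followed in epididymal white fat of male mice deficient in LPA4, a receptor for the signalling lipid lysophosphatidic acid, and of male wild-type littermates. The members were all genes of the array annotation whose symbol has the form Col, a type number, the letter a and a chain number, which gave 42 genes of the 18193 that were measured. They were split by type into 11 fibrillar genes (types I, II, III, V, XI, XXIV and XXVII), 6 basement membrane genes (type IV), 5 microfibrillar genes (type VI) and 20 genes of other types. The RefSeq mouse table of assembly GRCm38.p6 held 44 such symbols, and Col28a1 and Col6a6 were not analysed here because the annotation paired no probe set with them.

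Each array held the RNA of 1 whole fat pad sample, with 4 arrays from LPA4-KO mice (genotype Lpar4 -/Y, the gene being on the X chromosome) and 4 from WT mice, all of the C57BL/6 background and aged 12 weeks. The mice ate standard chow, and the labels name neither a Cre driver nor a cell type for the deficiency. Levels are log2 values per probe set as deposited, and differences are LPA4-KO minus WT. Means carry the SD over n = 4 mice, and differences carry the SE of the fit. In whole tissue, fewer cells of a type and less RNA per cell cannot be told apart.

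Collagens are secreted proteins whose chains wind around one another into trimeric helices. Fibrillar types form the cross-linked fibres that give tissue its tensile strength, type IV forms the sheet-like network of basement membranes, and type VI forms beaded microfibrils. Each fat cell is wrapped in a basement membrane, and fibroblasts and adipocyte progenitors are known as main sources of fibrillar collagen in fat. The chains are hydroxylated and folded in the endoplasmic reticulum, trimmed outside the cell and cross-linked by lysyl oxidases.

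Promoter sequences from RefSeq (GRCm38.p6) were available for 33 of the 42 genes. The first pair below shows how close the starts of Col4a1 and Col4a2 lie, because these neighbouring genes encode the 2 chains of the common type IV trimer and are described together in what follows. Their annotated starts lay 21 bases apart on opposite strands, at chr8:11312805-11312826. The start of Col4a2, on the plus strand, is at 11312805 and that of Col4a1, on the minus strand, at 11312826. By these starts the 2 genes overlap, and the stretch lies inside both rather than before them. It reads as follows on each strand, 5′ to 3′.
Col4a2, plus strand: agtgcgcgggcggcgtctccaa
Col4a1, minus strand: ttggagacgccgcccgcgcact
The starts of the other type IV pair on the X chromosome, Col4a5 and Col4a6, were 1343 bases apart.

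The next sequences are the 250 bases before the start of Col4a5 and of Col5a1, which are among the collagens with the clearest differences, and of Col5a3, the type V gene whose difference had the other sign. Capitals mark matches on either strand to the CCAAT box (CCAAT), the TATA box (TATAAA), the GC box (GGGCGG), and short forms of the TEAD (GGAATG), SMAD (CAGACA) and AP-1 (TGANTCA) motifs.
Col4a5, chrX:141475169-141475418, plus strand: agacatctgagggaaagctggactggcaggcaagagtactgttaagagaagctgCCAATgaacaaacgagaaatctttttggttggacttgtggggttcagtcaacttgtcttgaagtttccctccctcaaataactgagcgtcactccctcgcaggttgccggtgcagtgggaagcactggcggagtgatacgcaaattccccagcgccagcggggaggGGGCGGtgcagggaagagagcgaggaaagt
Col5a1, chr2:27886175-27886424, plus strand: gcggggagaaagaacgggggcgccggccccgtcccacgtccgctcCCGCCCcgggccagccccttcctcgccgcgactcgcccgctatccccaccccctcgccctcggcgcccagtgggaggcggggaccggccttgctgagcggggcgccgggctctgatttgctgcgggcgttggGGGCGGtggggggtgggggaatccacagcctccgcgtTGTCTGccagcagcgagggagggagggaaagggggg
Col5a3, chr9:20815068-20815317, minus strand: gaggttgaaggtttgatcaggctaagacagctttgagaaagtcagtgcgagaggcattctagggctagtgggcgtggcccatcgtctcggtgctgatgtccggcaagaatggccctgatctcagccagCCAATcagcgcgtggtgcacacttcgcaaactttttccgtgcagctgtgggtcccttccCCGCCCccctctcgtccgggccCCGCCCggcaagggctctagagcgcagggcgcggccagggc
All 3 windows held a GC box, those of Col4a5 and Col5a3 also a CCAAT box, and of the 3 only that of Col5a1 held a SMAD match. Among the 33 collagen genes, 20 (60.6%) held a GC box in at least 1 window, against 32.7% of 32851 promoter windows of all genes. SMAD matches were in 24.2% of the collagen genes and 17.1% of all windows, CCAAT in 39.4% and 33.8%, TATA in 15.2% and 12.4%, TEAD in 12.1% and 12.6%, and AP-1 in 3.03% and 6.75%. A collagen gene counted if any of its windows matched, while the shares of all genes count single windows. A gene with several windows has more chances of a match, so the shares are not directly comparable. They describe letters in a window and were not tested.

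The labels were first checked on the targeted gene. At 1 of its 3 probe sets, Lpar4 stood at 5.78, 5.86, 5.83 and 5.74 in LPA4-KO mice, against 6.48, 6.51, 6.53 and 6.54 in WT mice (difference -0.71 ± 0.03, adjusted p = 0.0033), while at its other 2 probe sets the difference was positive and did not pass (0.68 ± 0.24 and 0.48 ± 0.25, adjusted p = 0.23 and 0.39). Which part of Lpar4 was deleted is not stated in the labels. Of the fat markers, Adipoq and Fabp4 stood at 13.83 and 13.40 in both groups, within the top of a scale that ran from 5.27 to 14.07. None of 10 measured markers of epididymis and testis varied, with summed linear levels of 802.68 to 802.74 in LPA4-KO mice and 802.56 to 802.72 in WT mice.

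In LPA4-KO fat 5 collagen genes were called lower than in WT fat, by small amounts and in the fit of the varying genes alone. Choosing genes that varied favours those that differ between groups, and no collagen passed over all genes. Most other collagens that varied had a negative difference that did not pass. Of the 42 genes, 17 varied (40.5%, against 22.1% of all genes), meaning that the probe set used for the gene had values more than 0.1 log2 apart over the 8 arrays. Of these 17, 15 had a negative difference and 2 a positive one, with a median of -0.26 log2 and a range of -0.61 to 0.22. Among all 4029 varying genes 53.4% were negative, with a median of -0.03 log2.

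No collagen gene passed the test over all 18193 genes. With limma and an adjusted p under 0.05, 0 of 42 were called lower and 0 higher, where 0.451% of all genes were called lower. At an unadjusted p under 0.05, 9 were lower, as were 7.5% of all genes, and 2 nearly constant ones were higher, as were 10.1% of all genes. The smallest adjusted p was 0.095 for Col18a1. When the varying genes were fitted alone, 5 of the 17 were called lower (29.4%) and 0 higher, where 11.5% of the 4029 were called lower and 9.78% higher. These 5 were Col14a1, Col4a5, Col5a1, Col18a1 and Col4a1, between 1.23-fold and 1.53-fold lower. After quantile normalization of the varying genes 376 of them were called lower and 502 higher, and after median centring 403 and 477, in place of 465 and 394, and under each of these scalings the same 4 collagens without Col4a1 were called.

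Fewer collagens were called whenever 1 array was left out. Leaving out LPA4-KO replicate 1 or 2 gave 1 and 2 calls in the varying genes, and leaving out LPA4-KO replicate 3 or 4 gave 3 and 2. Leaving out WT replicate 1 or 2 gave 4 and 3 calls, and leaving out WT replicate 3 or 4 gave 1 and 2. The number of all varying genes called dropped as well, to between 405 and 847 of 4029. Col14a1 kept its call in 6 of these 8 fits, Col18a1 in 5, Col4a5 in 3, Col5a1 in 2 and Col4a1 in 1. Their direction could not turn in these fits, because in each of these genes all LPA4-KO arrays lay below all WT arrays. All LPA4-KO arrays lay below all WT arrays in 7 of the 17 genes (41.2%), where this held for 14.5% of all varying genes.

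**Figure D1:**
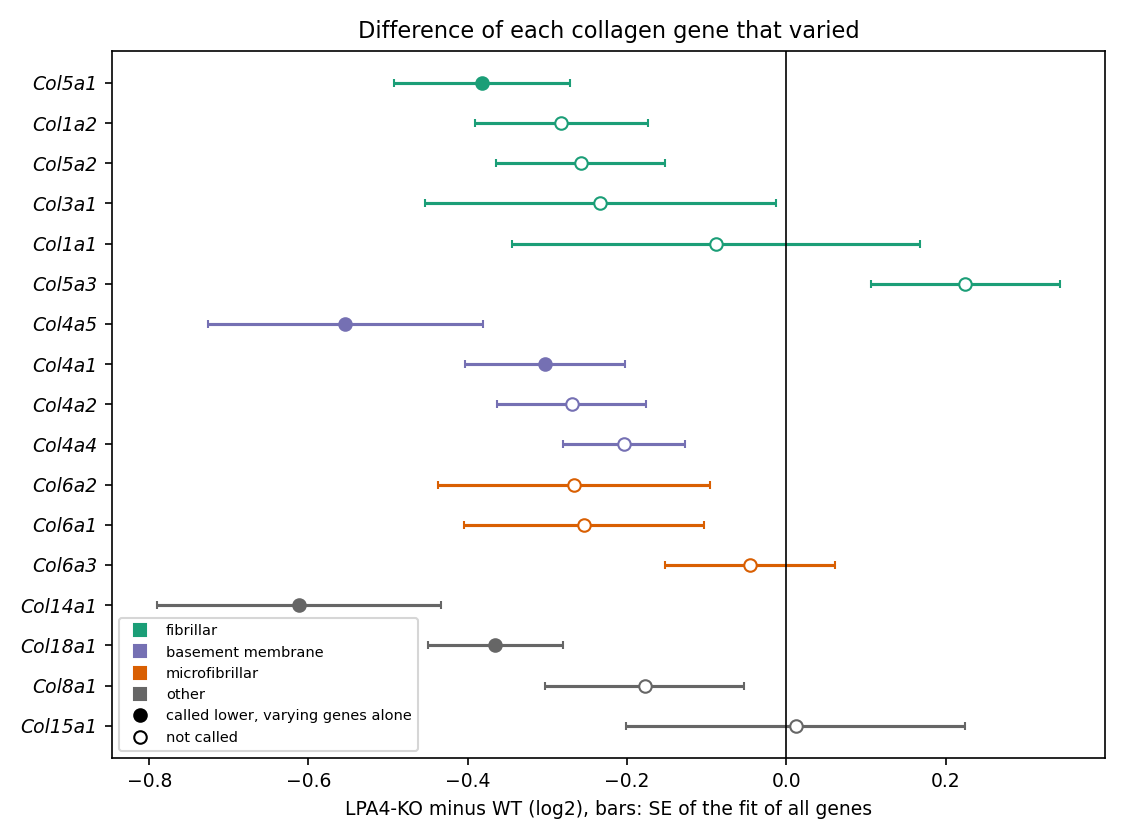
Differences between LPA4-KO and WT mice (log2, horizontal axis) for the 17 collagen genes that varied, ordered by class, with SE from the fit of all genes. Filled points are the 5 genes called lower in the varying genes alone. Of the 17 points, 15 lie left of 0, from -0.61 for Col14a1 to -0.05 for Col6a3, and Col5a3 (0.22) and Col15a1 (0.01) lie right of it.

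Among fibrillar collagens, 6 of 11 varied and 5 of these were negative (median -0.25 log2), and type V chains gave both the clearest decrease and the opposite sign. Col5a1 encodes a chain of type V, a minor fibrillar type that starts fibres and limits their width. It stood at 8.48, 8.33, 8.40 and 8.20 in LPA4-KO mice, against 8.67, 8.49, 8.94 and 8.83 in WT mice. The groups met narrowly, with the highest LPA4-KO array at 8.48 and the lowest WT array at 8.49. The means were 8.35 ± 0.12 and 8.74 ± 0.20, a 1.30-fold lower level (-0.38 ± 0.11, adjusted p = 0.15 over all genes and 0.034 in the varying genes alone).

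Col5a2, the partner chain in type V, had 9.96, 9.97, 9.82 and 9.61 in LPA4-KO mice, against 10.00, 10.03, 10.31 and 10.04 in WT mice. These groups did not overlap either, but the difference of -0.26 ± 0.11 did not pass in either fit (adjusted p = 0.28 and 0.094). Col5a3 encodes a further type V chain, and its levels were 8.53, 8.56, 8.62 and 8.74 in LPA4-KO mice and 8.12, 8.54, 8.61 and 8.28 in WT mice. Here the groups overlapped, with WT replicates 2 and 3 inside the range of the LPA4-KO mice, and the difference was 0.22 ± 0.12 (adjusted p = 0.39 and 0.16), or 0.14 without WT replicate 1.

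The major fibrillar chains did not pass. Col1a2, a chain of type I, stood at 11.59, 11.53, 11.64 and 11.27 in LPA4-KO mice, against 11.63, 11.71, 11.98 and 11.85 in WT mice. LPA4-KO replicate 3 lay just above WT replicate 1, and the difference was -0.28 ± 0.11 (adjusted p = 0.25 and 0.071). Col3a1, the single chain of type III, had 12.04, 11.72, 11.62 and 11.09 in LPA4-KO mice and 11.65, 11.76, 12.17 and 11.83 in WT mice. LPA4-KO replicate 1 stood above 3 of the 4 WT mice while LPA4-KO replicate 4 was the lowest of all, so the difference of -0.23 ± 0.22 had a wide error (adjusted p = 0.65 and 0.37). It was -0.06 without LPA4-KO replicate 4, -0.13 without WT replicate 3 and -0.38 without LPA4-KO replicate 1.

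Col1a1, the other chain of type I, showed the same spread within groups, with 7.78, 7.33, 7.21 and 6.77 in LPA4-KO mice and 6.88, 7.54, 7.63 and 7.40 in WT mice (-0.09 ± 0.26, adjusted p = 0.91 and 0.78). Leaving out 1 array gave -0.26 to 0.08, with the positive value without LPA4-KO replicate 4, -0.26 without LPA4-KO replicate 1, -0.25 without WT replicate 1, -0.03 without WT replicate 2 and -0.00061 without WT replicate 3. Another of its probe sets had a mean within 0.01 log2 of the first and was nearly constant. The cartilage collagens Col2a1, Col11a1 and Col11a2, and Col24a1 and Col27a1, were nearly constant.

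**Figure D2:**
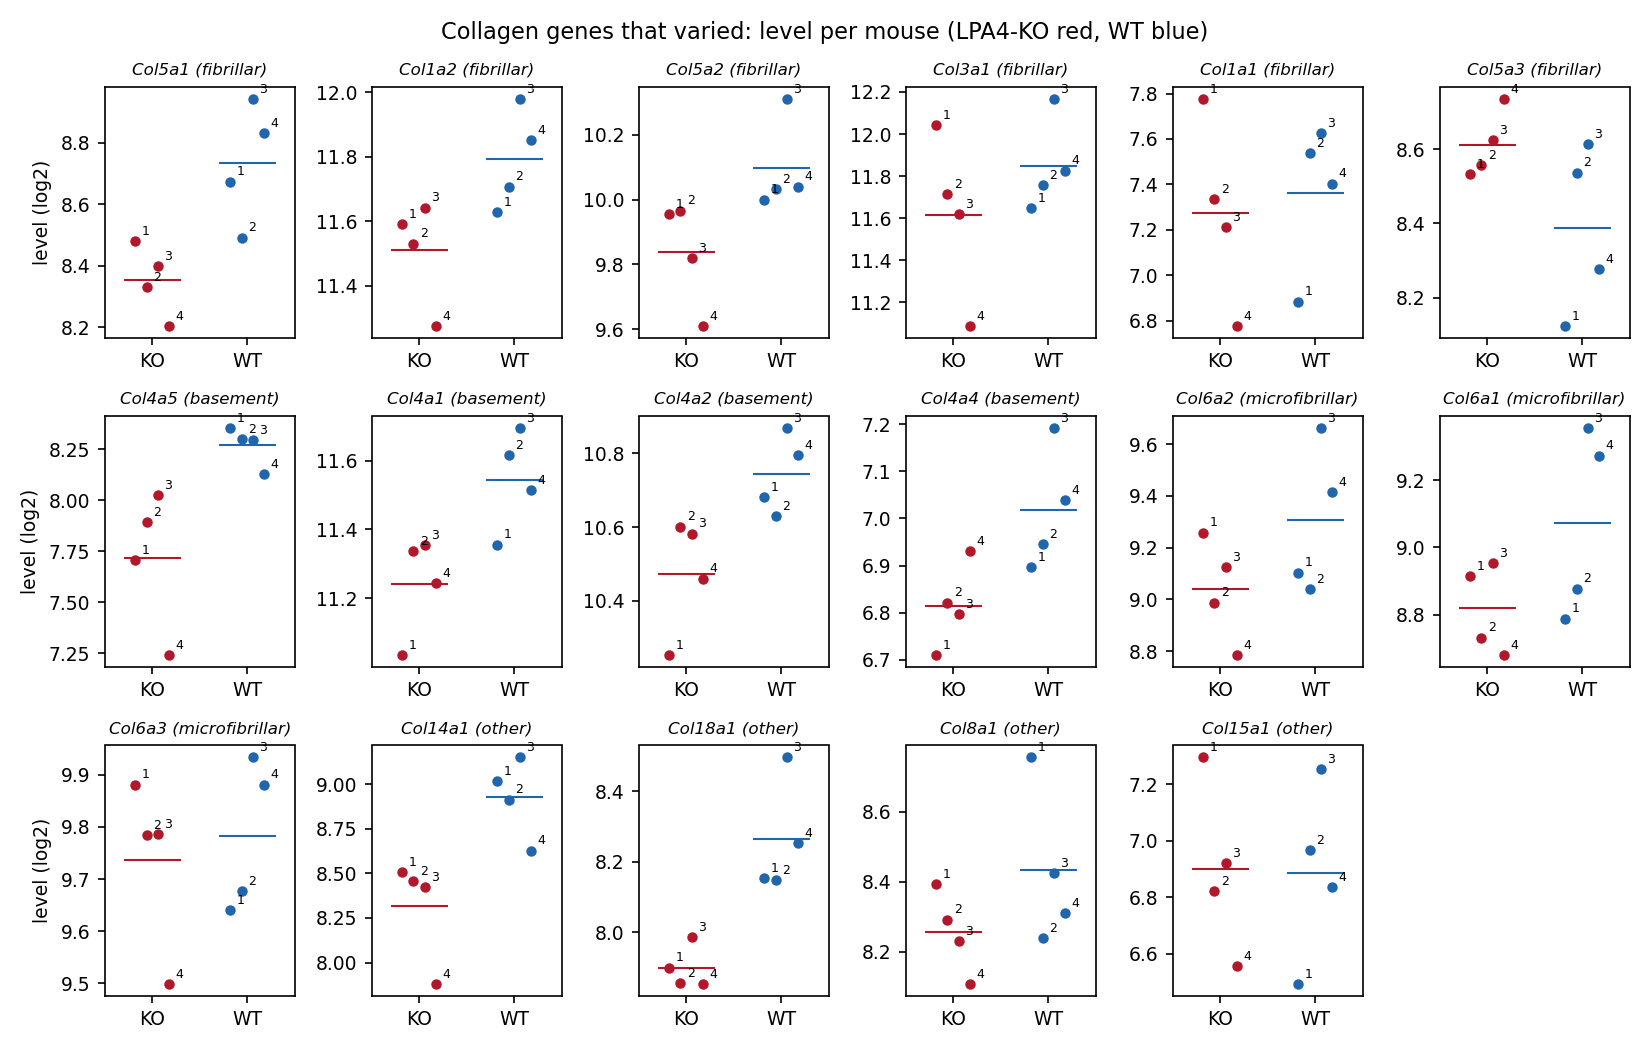
Level per mouse (log2, vertical axis, a scale of its own in each panel) of the 17 collagen genes that varied, LPA4-KO left and WT right, with the replicate number beside each point and a line at the group mean. In 7 panels every LPA4-KO point lies below every WT point, and in 12 panels LPA4-KO replicate 4 is the lowest of the 8 mice.

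All 4 type IV genes that varied had a negative difference (median -0.29 log2), and 2 of them, Col4a1 and Col4a5, were called lower in the varying genes alone. Col4a1 stood at 11.03, 11.34, 11.35 and 11.24 in LPA4-KO mice, against 11.36, 11.62, 11.70 and 11.51 in WT mice. Its groups touched, with LPA4-KO replicate 3 at 11.35 and WT replicate 1 at 11.36. The means of 11.24 ± 0.15 and 11.55 ± 0.15 gave a 1.23-fold lower level (-0.30 ± 0.10, adjusted p = 0.20 over all genes and 0.049 in the varying genes alone). Under quantile normalization or median centring within the varying genes the adjusted p was 0.067 and 0.060.

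Col4a2, whose start lies beside that of Col4a1, had 10.25, 10.60, 10.58 and 10.46 in LPA4-KO mice, against 10.68, 10.63, 10.87 and 10.80 in WT mice. LPA4-KO replicate 1 was the lowest of all 8 mice in both genes and WT replicate 3 the highest. The difference of Col4a2, -0.27 ± 0.09, did not pass (adjusted p = 0.21 and 0.063).

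Col4a5 encodes a chain of a less widespread type IV trimer and is X-linked, as Lpar4 is. Its levels were 7.70, 7.89, 8.02 and 7.24 in LPA4-KO mice, against 8.35, 8.30, 8.29 and 8.13 in WT mice. Every LPA4-KO mouse was below the lowest WT mouse, with LPA4-KO replicate 4 the lowest. The means were 7.71 ± 0.34 and 8.27 ± 0.10, a 1.47-fold lower level (-0.55 ± 0.17, adjusted p = 0.17 over all genes and 0.034 in the varying genes alone). Col4a6, the neighbour on the opposite strand, was nearly constant at both probe sets, as was Col4a3. Col4a4 ran from 6.71 to 6.93 in LPA4-KO mice and from 6.90 to 7.19 in WT mice (-0.20 ± 0.08, adjusted p = 0.24 and 0.14).

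The 3 type VI genes that varied were negative and none was called. Col6a1 had 8.91, 8.73, 8.95 and 8.68 in LPA4-KO mice, against 8.79, 8.88, 9.35 and 9.27 in WT mice (-0.25 ± 0.15, adjusted p = 0.44 and 0.19). Col6a2, which lies on the same chromosome, had 9.26, 8.99, 9.13 and 8.78, against 9.10, 9.04, 9.66 and 9.41 in WT mice (-0.27 ± 0.17, adjusted p = 0.48 and 0.21). In both genes WT replicates 3 and 4 stood above all LPA4-KO mice and WT replicates 1 and 2 lay among them. Without WT replicate 3 the differences were -0.16 for Col6a1 and -0.15 for Col6a2. Col6a3, the long chain whose end is cleaved off as endotrophin in fat, had 9.88, 9.78, 9.79 and 9.50, against 9.64, 9.68, 9.93 and 9.88 in WT mice. The groups overlapped throughout (-0.05 ± 0.11, adjusted p = 0.88 and 0.75), and the difference ran from -0.09 without LPA4-KO replicate 1 or WT replicate 1 to 0.03 without LPA4-KO replicate 4. It was -0.08 without WT replicate 2, -0.01 without WT replicate 4 and 0.0044 without WT replicate 3. Col6a4 and Col6a5 were nearly constant.

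Of the 20 collagens of other types 4 varied, and the largest collagen difference was among them. Col14a1 encodes type XIV, which sits on the surface of collagen fibres. It stood at 8.51, 8.45, 8.42 and 7.88 in LPA4-KO mice, against 9.02, 8.91, 9.15 and 8.63 in WT mice. No LPA4-KO mouse reached the lowest WT mouse. The means were 8.32 ± 0.29 and 8.93 ± 0.22, a 1.53-fold lower level (-0.61 ± 0.18, adjusted p = 0.15 over all genes and 0.027 in the varying genes alone), and without LPA4-KO replicate 4 the difference was -0.47.

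Col18a1 encodes type XVIII, a heparan sulfate-bearing collagen of basement membranes from whose end endostatin is cut. Its levels were 7.90, 7.86, 7.99 and 7.85 in LPA4-KO mice, against 8.15, 8.15, 8.50 and 8.25 in WT mice. The LPA4-KO mice lay close together and below all WT mice, a 1.29-fold lower level (-0.37 ± 0.08, adjusted p = 0.095 over all genes and 0.022 in the varying genes alone). Col8a1, a chain of the network-forming type VIII known from vessel walls, had 8.39, 8.29, 8.23 and 8.11, against 8.76, 8.24, 8.42 and 8.31 in WT mice, and did not pass (-0.18 ± 0.12, adjusted p = 0.53 and 0.27). Without WT replicate 1 its difference was -0.07. Col15a1, the basement membrane relative of Col18a1, had a difference of 0.01 ± 0.21, with 6.56 to 7.30 in LPA4-KO mice and 6.49 to 7.25 in WT mice, and it ran from -0.12 to 0.13 when 1 array was left out, negative in 3 of 8 such fits.

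The other 25 collagens spanned at most 0.0022 log2 over the 8 arrays. Besides those named above they were Col7a1, Col8a2, Col9a1, Col9a2, Col9a3, Col10a1, Col12a1, Col13a1, Col16a1, Col17a1, Col19a1, Col20a1, Col22a1, Col23a1, Col25a1 and Col26a1. The mean levels of the 25 ran from 5.65 to 7.30, and 24 of them lay below the median level of all genes, as did 2 of the 17 that varied. Markers with signals near the top of the scale, such as Adipoq, were also nearly constant in this table. So were endothelial markers at levels in between, such as Cdh5 (9.48) and Kdr (9.32). A constant value thus does not show that a gene was unaltered.

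Probe sets of the same gene mostly gave the same direction. The 42 genes had 82 probe sets, of which 26 varied, 24 with a negative difference, and in 12 of the 26 all LPA4-KO arrays lay below all WT arrays, as in 15.4% of all 6682 varying probe sets. In the 8 genes with more than 1 varying probe set, the varying probe sets had the same sign in all 8. Fitted with every named probe set on its own, 0 of the 82 were called lower with limma, where 0.321% of 34945 were, and 1 nearly constant probe set of Col23a1 was called higher by 0.00045 log2 (adjusted p = 0.044), where 0.612% were. At an unadjusted p under 0.05, 19 were lower (7.8% of all probe sets) and 6 higher (9.05% of all). Of these, 4 of the 19 and all 6 were nearly constant, with sizes of at most 0.00045 log2. At its second probe set, Col4a1 was at 9.86 ± 0.08 in LPA4-KO mice and 10.07 ± 0.07 in WT mice, again without overlap (-0.20 ± 0.05, adjusted p = 0.12 over all probe sets). Col14a1 differed by -0.43 ± 0.12 at another varying probe set without overlap (adjusted p = 0.15), and Col4a5 by -0.45 ± 0.15 at another with overlap (adjusted p = 0.22).

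Probe sets of 1 gene disagreed on whether it varied in 9 of the 27 genes with several. Besides Col12a1 these were Col14a1, Col18a1, Col5a1, Col5a3, Col1a1, Col1a2, Col4a4 and Col8a1. With the mean of all its probe sets, nearly constant ones included, Col5a1 differed by -0.13 and was not called in the varying genes alone. By that mean Col18a1 differed by -0.18 and Col14a1 by -0.35, both still called, while Col1a2 differed by -0.18, Col8a1 by -0.06 and Col3a1, whose probe sets all varied, by -0.37, none called. Col12a1 encodes type XII, a relative of type XIV on fibre surfaces. It was counted as nearly constant because its brightest probe set was, but at a dimmer probe set it stood at 6.46 ± 0.18 in LPA4-KO mice and 6.85 ± 0.22 in WT mice, without overlap (-0.39 ± 0.14, adjusted p = 0.24 over all probe sets).

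The mice did not rank alike in all classes. LPA4-KO replicate 4 was the lowest of the 8 mice in 12 of the 17 varying genes, and WT replicate 3 was the highest in 12. LPA4-KO replicate 1 had the highest LPA4-KO level in 8 genes, among them Col3a1 and Col1a1, and the lowest level of all 8 mice in Col4a1, Col4a2 and Col4a4. As a mean over the 6 varying fibrillar genes, LPA4-KO mice stood at 9.73, 9.57, 9.55 and 9.28, and WT mice at 9.49, 9.68, 9.94 and 9.70. This mean overlapped between the groups. Over the 4 type IV genes LPA4-KO mice stood at 8.92, 9.16, 9.19 and 8.97, and WT mice at 9.32, 9.37, 9.51 and 9.37, without overlap. These means describe chosen members and were not tested, and the difference between the classes was not tested.

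**Figure D3:**
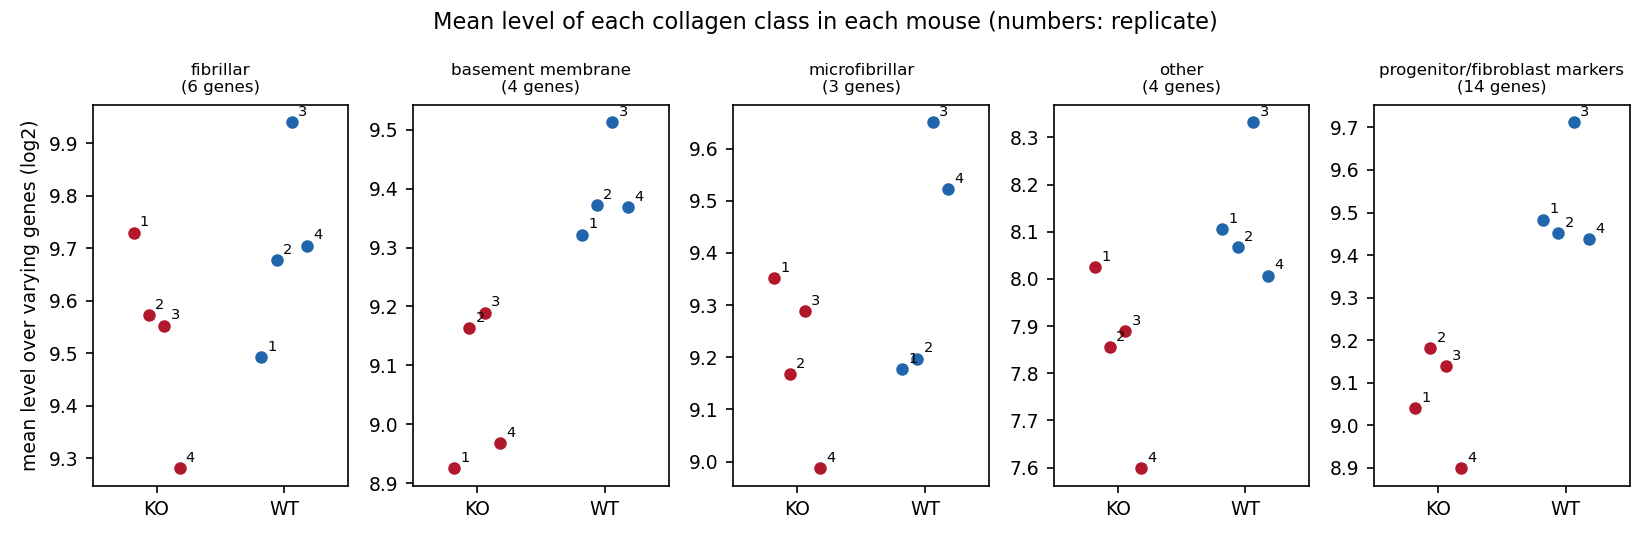
Mean level (log2, vertical axis) over the varying genes of each collagen class and over 14 varying markers of progenitors and fibroblasts, for each LPA4-KO mouse (left) and WT mouse (right), numbered by replicate. The groups overlap in the fibrillar, microfibrillar and other classes and do not overlap for type IV (LPA4-KO up to 9.19, WT from 9.32) or the markers (LPA4-KO up to 9.18, WT from 9.44).

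Markers of other cells were read beside these genes, 11.5% of all varying genes being called lower and 9.78% higher. In the fit of all genes 0.451% were called lower. Of 18 measured progenitor and fibroblast markers 14 varied, all 14 were negative (median -0.39 log2), and 7 were called lower in the varying genes alone, against 1 over all genes. The other 7 did not pass, and 4 markers were nearly constant. The summed linear level was 29528 to 32575 in LPA4-KO mice and 34349 to 36782 in WT mice. As with the collagens, the lowest mean over the varying markers was in LPA4-KO replicate 4 (8.90) and the highest in WT replicate 3 (9.71). This was not particular to these markers, since the same mice were lowest and highest for mesothelial markers (7.59 and 8.82). They were so too for the genes of folding and secretion, processing and assembly, receptors and basement membrane partners described below. For macrophage, endothelial, smooth muscle, adipocyte and breakdown genes at least 1 of these extremes was in another mouse. Pdgfra, a receptor that defines progenitors and fibroblasts and was called lower, was at 9.02 ± 0.28 in LPA4-KO mice and 9.68 ± 0.17 in WT mice (-0.66 ± 0.16, adjusted p = 0.099 over all genes and 0.016 in the varying genes alone).

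All 14 varying of 15 mesothelial markers were negative too (summed linear level 3700.1 to 5539.9 in LPA4-KO mice and 5148.4 to 9045.5 in WT mice). Of these 5 were called lower in the varying genes alone, where 11.5% of all varying genes were. That count was 0 without LPA4-KO replicate 1 or WT replicate 3, 1 without LPA4-KO replicate 4 or WT replicate 2, 2 without WT replicate 1, and 3 without LPA4-KO replicate 2. Leaving out WT replicate 4 raised it to 9. Of 14 macrophage markers 12 varied, all negative, with 3 called lower in the varying genes alone (summed level 13312 to 15407 in LPA4-KO mice and 14619 to 18770 in WT mice). Of 12 endothelial markers 5 varied, 4 negative and none called (4853.3 to 5214 in LPA4-KO mice and 5183.1 to 5788 in WT mice). Of 10 smooth muscle and pericyte markers 8 varied, 5 of them positive (list sum 4285.5 to 4978.1 in LPA4-KO mice and 5419.6 to 8568.9 in WT mice). Acta2 was called lower over all genes, where 0.451% were (-1.31 ± 0.21, adjusted p = 0.0498). Acta2 itself ran from 10.36 to 10.48 in LPA4-KO mice and from 11.36 to 12.32 in WT mice. The median of the 8 was 0.07 log2, and their mean level overlapped, at 8.49 to 8.77 in LPA4-KO mice and 8.48 to 8.89 in WT mice. None of 6 Schwann cell and nerve markers varied (745.76 to 752.5 in LPA4-KO mice and 749.47 to 761.35 in WT mice). Of 12 adipocyte markers 10 varied, 7 of them positive (59062 to 62632 in LPA4-KO mice and 58310 to 59718 in WT mice). In the varying genes alone 2 were called higher, as were 9.78% of all varying genes. Of these, Dgat1 was called higher over all genes too, as were 157 of 18193 genes (0.46 ± 0.07, adjusted p = 0.0498). No marker is listed at 0, since the table holds no value under 5.27. The part of these cell types in the collagen values was not tested.

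The genes that fold, trim, bind and break down collagen were taken from lists chosen with earlier results of these data known, so their direction is not independent evidence. The enzymes and chaperones of collagen folding and secretion showed no call. Of 24 measured, 7 varied, 4 negative and 3 positive (median -0.03 log2), and 0 were called by limma over all genes or in the varying genes alone. P4hb, the shared subunit of prolyl 4-hydroxylase, stood at 11.02 ± 0.06 in LPA4-KO mice and 11.13 ± 0.17 in WT mice (-0.11 ± 0.08, adjusted p = 0.58 and 0.36). Ppib, a prolyl isomerase that folds collagen, differed by -0.04 ± 0.06.

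Among genes of procollagen processing and fibre assembly 12 were lower in the varying genes alone, where 11.5% of all varying genes were called lower. In the fit of all genes that share was 0.451%. Of 21 measured, 16 varied, all negative (median -0.42 log2), and 4 of the 12 were called lower over all genes too (Thbs2, Lox, Fn1 and Dpt). Lox, the lysyl oxidase that cross-links the fibres, stood at 8.90 ± 0.26 in LPA4-KO mice and 10.22 ± 0.20 in WT mice (-1.32 ± 0.16, adjusted p = 0.030). Pcolce2, an enhancer of procollagen trimming, had 8.86 ± 0.19 in LPA4-KO mice and 9.60 ± 0.25 in WT mice (-0.74 ± 0.15, adjusted p = 0.075 over all genes and 0.010 in the varying genes alone). Bmp1, the protease that removes the C-terminal propeptide, differed by -0.36 ± 0.08 (adjusted p = 0.089 and 0.025). Dpt, Dcn and Lum of this list are also among the fibroblast markers. The 12 calls were 8 without LPA4-KO replicate 1 or WT replicate 3.

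Of 12 basement membrane partners 10 varied, all negative (median -0.29 log2), 1 was called lower over all genes and 6 in the varying genes alone. The shares called lower among all members of these fits were 0.451% and 11.5%. Lama2, a laminin chain, was at 8.70 ± 0.08 in LPA4-KO mice and 9.15 ± 0.13 in WT mice (-0.45 ± 0.08, adjusted p = 0.054 and 0.011). Lamc1, the laminin chain called over all genes, differed by -0.29 ± 0.05 (adjusted p = 0.045). The 6 calls were 2 without WT replicate 3, and 3 without LPA4-KO replicate 2 or 4.

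Of 14 collagen receptors 6 varied, 5 negative, with 1 called lower over all genes (0.451% of all genes were) and 4 in the varying genes alone (11.5% of all varying genes were). Antxr1, a receptor that binds collagens I and VI, was at 8.18 to 8.55 in LPA4-KO mice and 8.95 to 9.04 in WT mice (-0.58 ± 0.08, adjusted p = 0.039). Ddr2, the receptor kinase for fibrillar collagen, differed by -0.44 ± 0.10 and Itgb1, the beta subunit of the collagen-binding integrins, by -0.31 ± 0.08 (adjusted p = 0.096 and 0.10 over all genes, 0.019 and 0.028 in the varying genes alone). Of the 4 calls 2 were left when any of LPA4-KO replicates 1, 2 and 3 or WT replicate 4 was dropped, and 1 when WT replicate 3 was. Of 21 genes of collagen breakdown and uptake 13 varied, 9 negative and 4 positive, and 2 were called lower in the varying genes alone (2 of the 13, a share near the 11.5% of all varying genes). The lysosomal protease gene Ctsl was called lower over all genes (-0.38 ± 0.05, adjusted p = 0.037), and Timp2, an inhibitor of matrix metalloproteinases, in the varying genes alone (-0.43 ± 0.13, adjusted p = 0.16 and 0.031). A single call was left when LPA4-KO replicate 1, LPA4-KO replicate 4, WT replicate 3 or WT replicate 4 was dropped.

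**Figure D4:**
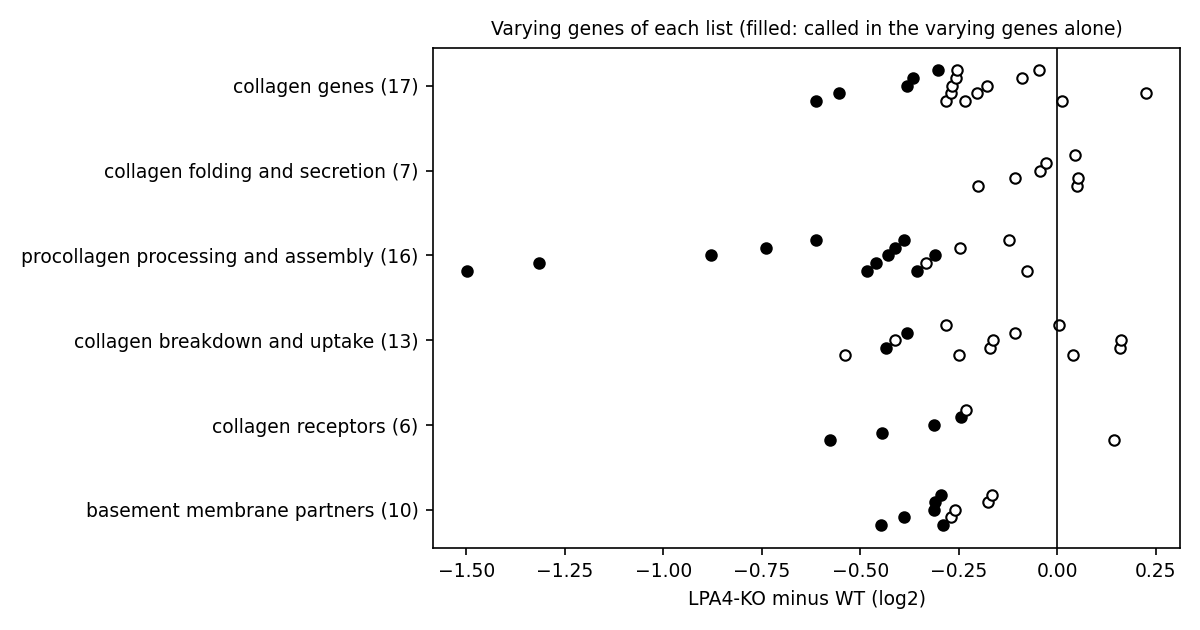
Differences between LPA4-KO and WT mice (log2, horizontal axis) of the varying genes among the collagens and 5 lists of genes that handle them, 1 point per gene, filled where called in the varying genes alone. All 16 points of procollagen processing and assembly and all 10 of the basement membrane partners lie left of 0, and the 7 of folding and secretion lie on both sides with none called.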

How the data were processed

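RNA was measured on Affymetrix 3′ expression arrays, per the labels' protocols. The deposited table holds 1 value per probe set, read as log2 from its range. R 2.14.0 is named in the submitters' processing notes, while background correction, normalization, summarisation and log base are not stated in any label or header used here, so folds rest on that reading. Precision is limited by how many arrays there are.

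Probe sets with 1 gene symbol in the platform annotation were used (34945 of 45101), and the probe set with the highest mean stood for its gene. LPA4-KO was set against WT by limma 3.58.1 (R 4.3.3, lmFit and eBayes with trend), over all 18193 genes and, separately, over the 4029 genes spanning over 0.1 log2, with Benjamini-Hochberg adjustment at 0.05. Requiring a span favours genes that differ between groups. Steps were tested on simulated data. Values in full are given for collagens called in either fit, the 2 brightest and the 2 with the smallest p per class, and further varying members added after their values were seen. In other lists called members, the 2 smallest p and the 2 brightest were eligible, 4 at most. Members and lists were chosen with earlier results of these data known. Alternatives were scaling, variance models, array weights, a replicate block, level filters, probe set rules, thresholds and each array left out. The labels state no pairing of the mice, so no block was used.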

Additional observations from a re-analysis of the deposited data

Results flagged for a closer look

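In 2 of 34 groups of 4 mice (17 varying collagens in each genotype) 1 mouse stood apart by Dixon's test, which chance gives in about 1 of 20 groups. Col14a1 in LPA4-KO replicate 4 was 7.88, against 8.42 to 8.51 in the other LPA4-KO mice. Col5a2 in WT replicate 3 was 10.31, against 10.00 to 10.04 in the other WT mice. The cause was not tested.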

How the results depend on the processing

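Over all genes, 0 collagens were called in either direction with limma. Quantile normalization gave 5 lower and 17 higher, and all 17 were nearly constant genes with differences of at most 0.024 log2. Fitting the varying genes alone gave 5 lower, a threshold of 0.10 gave 1 lower, an unadjusted p under 0.05 gave 9 lower and 2 higher, and every probe set on its own gave 1 higher (Col23a1, 0.00045 log2). In the varying genes alone, the 5 lower calls were 9 with array weights, 2 among genes above the median level, 8 at a threshold of 0.10, 0 at 0.01 and 8 at an unadjusted p under 0.05. Leaving out 1 array gave 1 to 4. The fit above the median level held only 9 collagens and left out Col4a5, Col18a1 and Col5a1, while Col14a1 and Col4a1 kept their call in it. Of 82 probe sets, 12 were called lower after quantile normalization, 1 with array weights, 1 with the replicate block, 1 at a threshold of 0.10 and 19 at an unadjusted p. The call with array weights and the call at 0.10 were the same nearly constant probe set of Col1a2, with a difference of -0.00032 log2 in the main fit. The replicate block gave 4 collagens in the varying genes alone, ending the call of Col5a1 (adjusted p = 0.051), and correlations of same-numbered mice ran from -0.18 to 0.24. For LPA4-KO replicates 2 and 3 the most correlated WT mouse had the same number, and for replicates 1 and 4 it did not. These few values do not settle whether the numbers pair the mice. Of the 12 collagens named by the rule, Col6a3 turned to higher without LPA4-KO replicate 4 (0.034) or WT replicate 3 (0.0044), with a range of -0.094 to 0.034 when 1 array was left out, and the other 11 kept their direction in all 18 alternatives each. At the 1 probe set of Lpar4 that passed, the difference ran from -0.73 to -0.69 with 1 array left out, and its other 2 probe sets were not followed. The causes were not tested. No signal above background could be tested in this table, and 4 arrays a group limit what can be called.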
